A study of Mus musculus with 24 samples.

Results

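Transcripts of 6 genes of the renin-angiotensin system were followed in sorted mouse adipose progenitors: Agt, Ace, Enpep, Agtr1a, Agtr1b and Agtr2. They were chosen by gene symbol from a table of 27179 genes, and all 6 were found. Genes entered the tests when 3 or more libraries reached a normalised count of 10, and Agt, Ace, Enpep, Agtr1a and Agtr2 were among the 14387 that did. Agtr1b did not. Agtr2 did so through its 12 female libraries alone, so a test of that gene between the sexes had to find a difference, and its sex comparison is given as a description.

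Bulk RNA sequencing was performed on cells positive for PDGFRb, the beta receptor for platelet-derived growth factor, sorted from white adipose tissue of C57BL/6 mice. There were 24 libraries in 8 groups of 3, and every group shared the strain and the PDGFRb sort. APC and FIP are subpopulations of gonadal fat, taken from females and from males, while DPP4_neg APC and DPP4_pos APC (here DPP4_neg and DPP4_pos) are subpopulations of inguinal fat, again from each sex. The series title gives its subject as how these progenitors vary with sex and depot. The sources used here do not give the gates that separated FIP from APC, the ages of the mice, any treatment, or whether the 3 libraries of a group came from separate animals. The p-values therefore reflect variation among the libraries, some or all of which may be technical.

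Angiotensinogen, the product of Agt, is the only known precursor of the angiotensin peptides. Renin cuts it to angiotensin I, the angiotensin-converting enzyme encoded by Ace trims that to the active angiotensin II, and the aminopeptidase encoded by Enpep shortens angiotensin II to angiotensin III. Rodents have a pair of genes for the type 1 receptor, Agtr1a and Agtr1b, which mediates the pressor and growth actions of angiotensin II, while the type 2 receptor encoded by Agtr2 often opposes them; adipose tissue is a known source of angiotensinogen outside the liver.

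The regions just upstream of the annotated start were taken from RefSeq (build GRCm38.p6) for the ligand precursor, the converting enzyme and the type 2 receptor, the members whose levels moved most between the groups. Each sequence is the 250 bases before the start, 5′ to 3′ on the strand of the gene, and capitals mark matches to TATAA on either strand. Agt lies on chr8:124569707-124569956 (minus strand), Ace on chr11:105967698-105967947 (plus strand) and Agtr2 on chrX:21484374-21484623 (plus strand).
Agt: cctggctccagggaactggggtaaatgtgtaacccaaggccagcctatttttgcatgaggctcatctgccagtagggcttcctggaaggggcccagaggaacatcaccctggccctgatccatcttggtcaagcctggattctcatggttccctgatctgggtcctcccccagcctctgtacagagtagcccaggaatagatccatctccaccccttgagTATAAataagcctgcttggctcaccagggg
Ace: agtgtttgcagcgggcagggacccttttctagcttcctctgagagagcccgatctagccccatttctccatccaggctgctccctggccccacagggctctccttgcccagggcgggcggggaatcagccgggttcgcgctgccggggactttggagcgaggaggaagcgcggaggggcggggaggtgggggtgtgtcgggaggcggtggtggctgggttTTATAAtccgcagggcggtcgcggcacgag
Agtr2: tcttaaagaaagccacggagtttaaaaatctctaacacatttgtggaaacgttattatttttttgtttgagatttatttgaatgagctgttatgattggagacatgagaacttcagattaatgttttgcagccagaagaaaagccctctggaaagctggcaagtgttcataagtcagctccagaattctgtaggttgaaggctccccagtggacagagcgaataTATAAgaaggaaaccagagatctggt
The match began 30 bases before the start of Agt and 26 bases before that of Agtr2. In Ace the letters TTATAA hold overlapping matches on both strands, which began 29 and 30 bases before the start. TATAA was present on at least 1 strand in 22.8% of 32851 promoters of the same length. AGAACA, a half-site of steroid hormone receptors (16.1% of promoters), and AGGTCA, a half-site of other nuclear receptors (14.0%), were searched on both strands as well and were not in these 3 windows. RefSeq lists a second Ace promoter (chr11:105974939-105975188, not printed), which held AGGTCA 50 bases before its start and no TATAA or AGAACA. These matches describe letters and not sites in use.

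Before the members, the labels were read against marker genes. Pdgfrb was present in every library (1729.7 to 6277), and none of the 7 progenitor markers was at 0 in a group; their summed level ran from 88213 in male APC to 496604 in male DPP4_neg. Dpp4 was high in the inguinal DPP4_pos libraries and low in male DPP4_neg (235 to 258), but the female DPP4_neg libraries held 4213, 2124 and 1150.2. Those female DPP4_neg libraries also stood apart in 9 mammary and other epithelial markers (sum 4192 to 10141, against 11.1 to 398 elsewhere), none of which was at 0 there and all of which were higher than in female APC, female DPP4_pos and male DPP4_neg. The sum of 10 mesothelial markers was high there too (6808 to 16502, against 38.5 to 1297 elsewhere), but through the keratin genes Krt8, Krt18 and Krt19, which other epithelia share. The other 7, Msln and Upk3b among them, were higher in female APC than in female DPP4_neg, where their means were 0.5 to 4.6. Xist lay between 11954 and 19203 in female and between 0 and 5.80 in male libraries. The summed level of 4 Y-linked genes (Ddx3y, Kdm5d, Uty and Eif2s3y) was 3.19 to 5.41% of the male mean in female APC, 2.01 to 2.28% in female FIP, 1.21 to 1.93% in female DPP4_neg and 0.798 to 1.44% in female DPP4_pos libraries. Recovered reads were 9152470 to 18221692 per library. In bulk libraries, fewer cells that express a gene and less RNA per cell cannot be told apart.

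Agt transcripts were far more abundant in males than in females in all 4 subpopulations. All values are the deposited normalised read counts, given for replicates 1, 2 and 3, and Agt is at chromosome 8, 124556587 to 124569706 (GRCm38). APC libraries held 5062, 4732 and 4564 normalised counts in males and 407, 338 and 394 in females. FIP libraries held 858, 942 and 1216 in males and 63.1, 62.3 and 55.7 in females. The sexes stood well apart in both gonadal subpopulations. DPP4_neg libraries held 2071, 1615 and 1697 in males and 132, 113 and 148 in females. DPP4_pos libraries held 193, 158 and 164 in males and 34.0, 33.2 and 38.0 in females. Every male library exceeded every female library of its subpopulation, and DPP4_pos had the narrowest gap. The ratio of the male to the female mean was 12.6 in APC, 16.7 in FIP, 13.7 in DPP4_neg and 4.90 in DPP4_pos. On the log2(value + 1) scale these differences were 3.66, 4.02, 3.77 and 2.26, each ± 0.12 (SE), with Benjamini-Hochberg adjusted p of 1.94e-17, 1.95e-18, 9.46e-18 and 1.23e-13 in limma. Among all genes tested, Agt ranked 53 of those higher in males in APC, 24 in FIP, 18 in DPP4_neg and 131 in DPP4_pos.

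**Figure D1:**
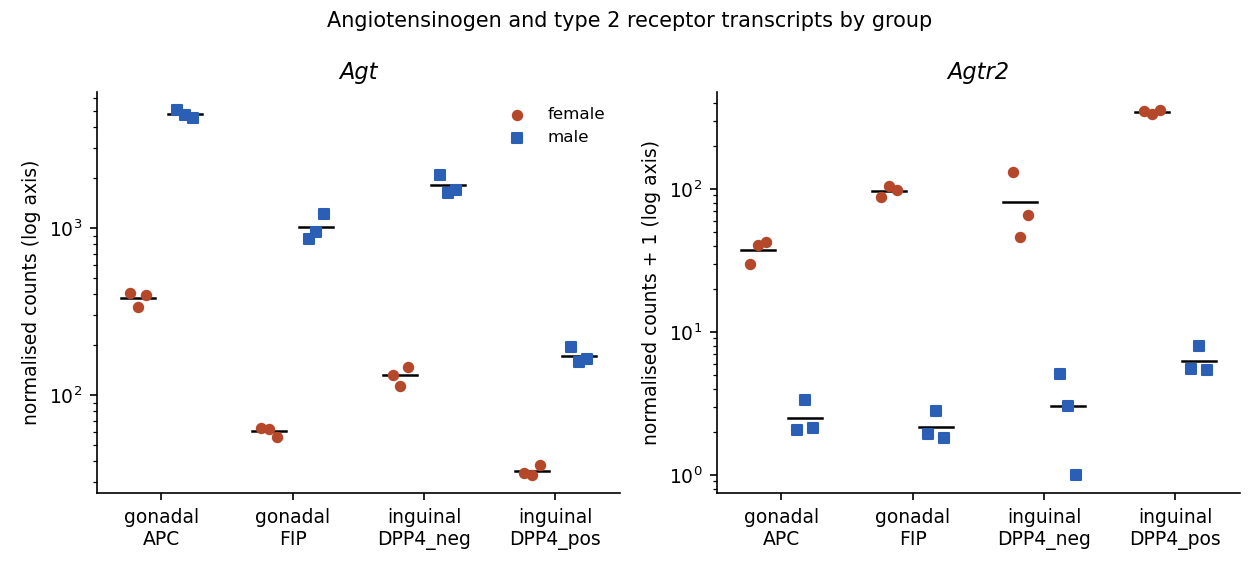
Normalised counts of Agt (left) and of Agtr2 plus 1 (right) in each library, on log axes, by subpopulation; circles are female and squares male libraries, and lines are means of 3. Male libraries lie above female ones for Agt (33.2 to 407 in females, 158 to 5062 in males), and female libraries lie above male ones for Agtr2 (28.7 to 354 in females, 0 to 6.92 in males).

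The order of the Agt means was male APC (4786 ± 254, SD, n = 3), male DPP4_neg (1794 ± 244), male FIP (1005 ± 188), female APC (379.6 ± 36.8), male DPP4_pos (172 ± 18.9), female DPP4_neg (131 ± 17.4), female FIP (60.4 ± 4.05) and female DPP4_pos (35.1 ± 2.58). The libraries of neighbouring groups in this order did not overlap, and the highest mean was 137 times the lowest. In both sexes Agt was highest in APC and lowest in DPP4_pos.

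Agt levels in the female libraries were 7.06 to 8.50% of the male mean in APC, 5.54 to 6.28% in FIP, 6.30 to 8.24% in DPP4_neg and 19.3 to 22.1% in DPP4_pos. In each subpopulation these percentages were above those of the Y-linked genes in the same female libraries, given above; the part of that Y-linked signal in the female Agt values was not tested. Adipocytes transcribe Agt as well. The 8 adipocyte markers, of which 7 were tested, summed to 1049 to 1269 in female APC and 674 to 869 in male APC. Plin1 and Adipoq, the most abundant of them in females, were lower in male APC and Lep was higher, and the median of the 7 was 0.40 higher in males. Their sums were 89.6 to 120.5 in female FIP, 284 to 327 in male FIP, 104 to 191 in female DPP4_neg, 226 to 351 in male DPP4_neg, 18.2 to 69.0 in female DPP4_pos and 127 to 227 in male DPP4_pos, with Cidea at 0 in female FIP alone. In males 7 of the 7 were higher in FIP, 4 in DPP4_neg and 7 in DPP4_pos (18.3%, 27.1% and 27.1% of all genes), as Agt was. Their part in the Agt difference was not tested in any subpopulation.

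Within a depot, Agt was lower in FIP than in APC and lower in DPP4_pos than in DPP4_neg, in each sex. FIP cells had 6.29-fold less Agt than APC in females (log2 fold change -2.63) and 4.76-fold less in males (-2.26). DPP4_pos cells had 3.73-fold less than DPP4_neg in females (-1.86) and 10.4-fold less in males (-3.37), and no libraries overlapped in these comparisons. The decrease from DPP4_neg to DPP4_pos was larger in males: the difference between the sexes was -1.51 ± 0.17 (limma adjusted p = 3.07e-07). Female DPP4_neg libraries held more Dpp4 and epithelial markers than male ones, and the part of this was not tested. For FIP against APC the difference between the sexes, 0.37 ± 0.17, did not pass (adjusted p = 0.194). Of the 7 tested adipocyte markers, 7 were lower in female and 5 in male FIP (18.2% and 18.1% of all genes). In DPP4_pos 6 were lower in females and 2 in males (27.2% and 25.4%), the latter near the share over all genes. None was higher, and the part of adipocyte markers was not tested.

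Gonadal cells had more Agt than the inguinal subpopulation set beside them. APC exceeded DPP4_neg by 1.53 in females and 1.42 in males on the log2 scale, and the difference between the sexes was -0.11 ± 0.17 (adjusted p = 0.635). FIP exceeded DPP4_pos by 0.77 in females and 2.53 in males, a difference of 1.76 ± 0.17 that passed (adjusted p = 2.41e-08). Expression of 10 immediate early genes, which respond to cell handling, also differed by depot: their sum was 368499.5 to 439223 in APC and 252634 to 294262 in FIP, against 117291 to 175934 in DPP4_neg and 98078 to 156214 in DPP4_pos libraries. All 10 passed as higher in APC than in DPP4_neg in each sex (27.0% of all genes in females and 33.3% in males). So did 9 in female and 10 in male FIP against DPP4_pos (22.2% and 32.8%). Their part in the depot differences of Agt and the other members was not tested.

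Ace was among the most abundant genes of these cells, and it too was higher in males. It lies on chromosome 11, 105967948 to 105989964, and 295 of its exon bases overlap the antisense gene Gm11651, whose reads cannot be told apart without a stated strand setting. APC libraries held 20453, 19378 and 20428 normalised counts of Ace in males and 4499.7, 5306 and 5481 in females. FIP libraries held 22921, 23364 and 23489 in males and 10689, 10319 and 12366 in females. The male values were well above the female ones in both. DPP4_neg libraries held 14144, 17459 and 16957 in males and 12758, 11429 and 11349 in females. DPP4_pos libraries held 50543, 50367 and 51324 in males and 21457, 28931 and 25259 in females. The sexes did not overlap in any subpopulation, though in DPP4_neg the lowest male library was close to the highest female one. Male means were 3.94-fold the female ones in APC, 2.09-fold in FIP, 1.37-fold in DPP4_neg and 2.01-fold in DPP4_pos, or 1.98, 1.07, 0.45 and 1.02 on the log2 scale, each ± 0.10 (SE; the adjusted p of DPP4_neg, the weakest, was 0.000581). With quantile normalization the DPP4_neg difference was 0.12 and did not pass (adjusted p = 0.309).

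The highest Ace level by far was in male DPP4_pos, with a mean of 50745 ± 509 (SD, n = 3). Female DPP4_pos (25215 ± 3737) and male FIP (23258 ± 298) followed with overlapping libraries, then male APC (20086 ± 614) and male DPP4_neg (16187 ± 1787). Female DPP4_neg (11846 ± 792) and female FIP (11125 ± 1091) overlapped, and female APC was lowest (5095 ± 523). Endothelial cells are a classical site of Ace. The 10 endothelial markers summed to 4243 to 4552 in male and 6420 to 7391 in female DPP4_pos, to 4102 to 4763 and 3249 to 4672 in APC, to 6388 to 7447 and 5677 to 6271 in FIP, and to 1018 to 1211 and 1894 to 2745 in DPP4_neg. Tek, the angiopoietin receptor gene, held most of these sums in FIP, DPP4_neg and DPP4_pos. Counted gene by gene in males against females, 3 were higher and 0 lower in APC (22.4% and 22.2% of all genes), and 7 and 0 in FIP (18.3% and 19.1%). In DPP4_neg 0 were higher and 7 lower (27.1% and 30.5%), and in DPP4_pos 1 and 2 (27.1% and 25.7%), with a median of 0.07. Their part in the sex differences of Ace was not tested.

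DPP4_pos cells had more Ace than DPP4_neg cells, 2.13-fold in females (log2 fold change 1.08) and 3.13-fold in males (1.65), and the increase was larger in males by 0.57 ± 0.14 (limma adjusted p = 0.0036). FIP cells had 2.18-fold more Ace than APC in females (1.13), whereas the male difference of 0.21 did not pass (adjusted p = 0.107), although it did with quantile normalization (0.29, adjusted p = 0.0193) and with only these groups fitted (0.0152). The difference between the sexes was -0.92 ± 0.14 (adjusted p = 0.000109). APC had less Ace than DPP4_neg in females (-1.22) and slightly more in males (0.32, adjusted p = 0.00828), and the sexes differed by 1.54 ± 0.14 (adjusted p = 4.84e-09). Sex differences that involve DPP4_neg take in its female libraries, which held more Dpp4 and epithelial markers than the male ones. The part of this was not tested. Within a depot the endothelial markers did not move as one. In females 7 of 10 were lower in DPP4_pos than in DPP4_neg (27.2% of all genes) and 7 of 10 lower in FIP than in APC (18.2%). Tek was higher in both and Kdr in the former. In males Tek and Kdr were higher in DPP4_pos and Emcn lower, and Tek alone of the 10 passed in FIP against APC. The summed level of the 10, given above, was higher in DPP4_pos than in DPP4_neg and in FIP than in APC in each sex. The part of endothelial markers in these Ace differences was not tested. The male value of APC against DPP4_neg rested on 1 library: without male DPP4_neg replicate 1 it was 0.22 (adjusted p = 0.0623). FIP had less Ace than DPP4_pos in both sexes (-1.17 and -1.13), with a difference of 0.05 ± 0.14 between them (adjusted p = 0.827, but 0.48 with adjusted p = 0.00926 after quantile normalization).

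Enpep, the aminopeptidase gene, followed subpopulation more than sex. It lies on chromosome 3, 129269177 to 129332749. DPP4_neg libraries held 5870.4, 8004 and 7022 normalised counts in females and 4382, 4208 and 4624 in males. DPP4_pos libraries held 1993, 1884 and 2014 in females and 1052, 1150.1 and 1132 in males. DPP4_pos was thus below DPP4_neg in each library of each sex. APC libraries held 5411, 5062 and 4720.3 in females and 5583, 5120.1 and 5203 in males. FIP libraries held 4049, 3984 and 3705 in females and 2863, 2737 and 2749.7 in males. The sexes overlapped in APC and were separate in FIP and in both inguinal subpopulations, with females higher. DPP4_pos means were 3.55-fold below DPP4_neg in females and 3.96-fold below in males, log2 fold changes of -1.82 and -1.99, each ± 0.08 (SE), with limma adjusted p of 6.44e-15 and 2.14e-16. FIP was below APC by less, at -0.37 in females and -0.93 in males, and this decrease was larger in males (-0.56 ± 0.11, adjusted p = 0.00189). Male minus female differences were -0.49 in FIP, -0.65 in DPP4_neg and -0.82 in DPP4_pos, and the value in APC, 0.07, did not pass (adjusted p = 0.53; 0.23 and 0.0457 after quantile normalization).

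Enpep also marks pericytes. The 10 mural markers, which do not include Enpep, summed to 2160 to 2726 in female and 2044 to 2951 in male DPP4_neg, against 1391 to 1812 and 640 to 807 in DPP4_pos. In APC they summed to 2476 to 2947 in females and 3542 to 4254 in males, against 960 to 993 and 2039 to 2278 in FIP. In females 6 of the 10 were lower and 1 higher in DPP4_pos (27.2% and 22.7% of all genes), and 9 were lower in FIP (18.2%). In males 7 and 6 were lower (25.4% and 18.1%), with none higher. Macrophage markers were lower in the same female comparisons, 13 of 13 in DPP4_pos and 12 in FIP. In males 7 were lower in DPP4_pos and 2 in FIP, the latter near the share over all genes. The part of either list in the Enpep and Agt differences was not tested; Higd1b was at 0 in male DPP4_pos.

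By depot, Enpep was higher in FIP than in DPP4_pos, 1.99-fold in females and 2.50-fold in males (0.99 and 1.32 on the log2 scale). The sexes differed there by 0.33 ± 0.11 (adjusted p = 0.0272), a call lost on leaving out female FIP replicate 3, male FIP replicate 1, female DPP4_pos replicates 1 or 3, or male DPP4_pos replicate 1 (adjusted p of 0.0506 to 0.0718). APC had less Enpep than DPP4_neg in females (-0.45) and more in males (0.27), and the sexes differed by 0.72 ± 0.11 (adjusted p = 1.66e-05). Female DPP4_neg, the group with the most Enpep (6966 ± 1068), was the group with epithelial markers. Its replicate 2 was highest both in Enpep and in their sum (10141), its replicate 1 lowest in both (4192), and the part of those markers was not tested.

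**Figure D2:**
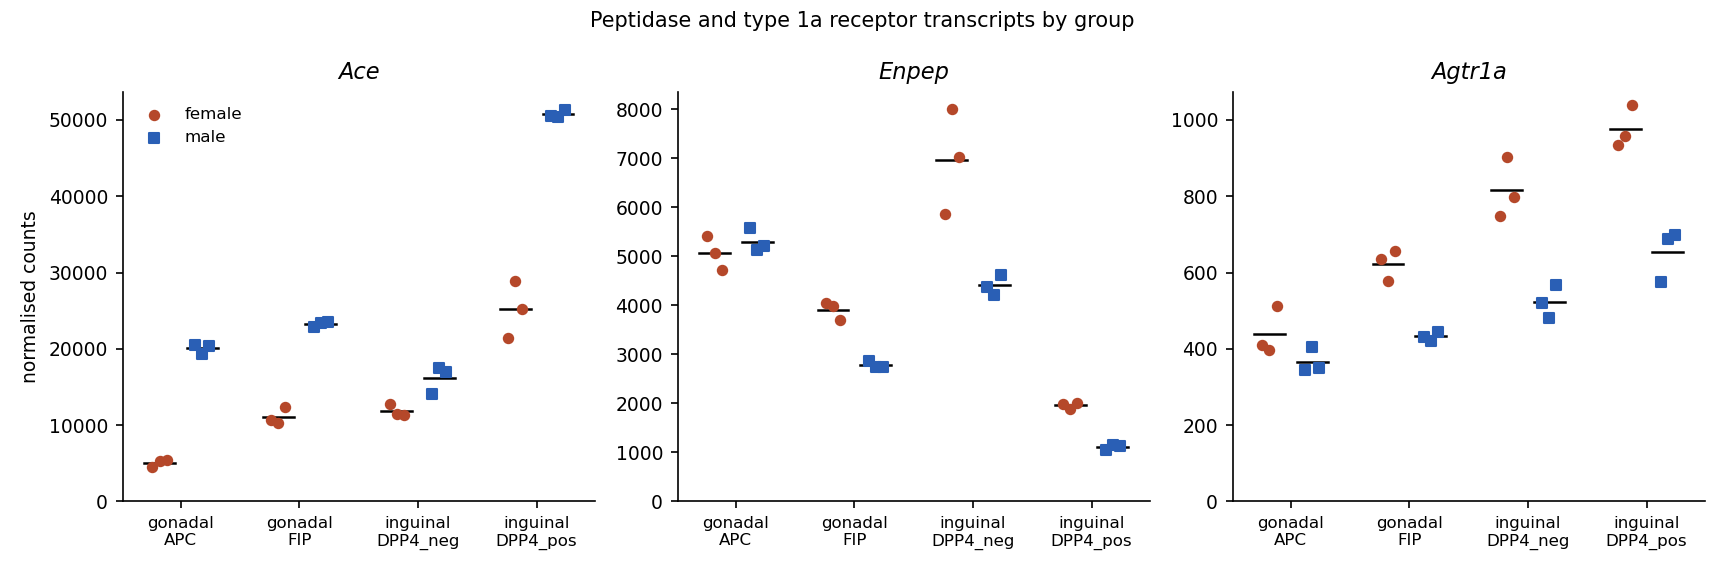
Normalised counts of Ace, Enpep and Agtr1a in each library by subpopulation; circles are female and squares male libraries, and lines are means of 3. Male DPP4_pos is highest for Ace (mean 50745), DPP4_pos is lowest for Enpep in both sexes (means 1964 and 1112), and female inguinal groups are highest for Agtr1a (means 816 and 977).

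Agtr1a, the type 1a receptor gene, varied least of the tested members, with the highest group mean 2.67 times the lowest. It lies on chromosome 13, 30336356 to 30382867. DPP4_pos libraries held 933, 958 and 1038 normalised counts in females and 575, 688 and 698 in males. DPP4_neg libraries held 748, 902 and 798 in females and 519.6, 481 and 567 in males. Both inguinal subpopulations were higher in females without overlap. FIP libraries held 636, 577 and 657 in females and 431, 421 and 445 in males. APC libraries held 411, 397 and 512 in females and 343, 406 and 349.6 in males. Only in APC did the libraries of the sexes overlap among these 4 subpopulations. Male minus female log2 differences were -0.58 in DPP4_pos, -0.64 in DPP4_neg and -0.52 in FIP, each ± 0.10 (SE, limma adjusted p of 2.36e-05, 5.56e-06 and 0.000149). The APC difference of -0.26 was at the edge of the threshold (adjusted p = 0.0362), and it did not pass with edgeR (adjusted p = 0.0548), without a filter (0.0532), with the APC libraries alone (0.103), or without female replicate 3 (0.26), male replicate 1 (0.134) or male replicate 3 (0.114).

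In the order of Agtr1a means, male DPP4_pos (654 ± 68.1) and female FIP (623 ± 41.7) overlapped. Female APC (439.9 ± 62.5) overlapped both male DPP4_neg (523 ± 43.2) above it and male FIP (432 ± 12.2) below it. Female DPP4_pos (977 ± 55.0) and female DPP4_neg (816 ± 78.5) stood above all others and male APC (366 ± 34.3) was lowest, though its libraries overlapped those of female APC. Agtr1a was lower in the gonadal than in the inguinal subpopulation in every pair, with log2 fold changes of -0.89 and -0.51 for APC against DPP4_neg in females and males, and of -0.65 and -0.59 for FIP against DPP4_pos. The sexes differed in the former by 0.38 ± 0.14 (adjusted p = 0.03), which did not pass with only the 4 groups compared (0.073), nor without female APC replicates 1 or 2, male APC replicate 2, female DPP4_neg replicate 2 or male DPP4_neg replicate 2 (0.075 to 0.0935). Within a depot the differences were small. FIP exceeded APC by 0.51 in females, while the male value of 0.24 did not pass (adjusted p = 0.0572). It did pass with only these groups (0.0361), with a replicate block (0.0428) and without male APC replicate 2 (0.025). DPP4_pos exceeded DPP4_neg by 0.26 in females and 0.32 in males (adjusted p = 0.0306 and 0.00887), and neither passed after quantile normalization (0.14 and 0.0954). In females that call was also lost without DPP4_neg replicates 1 or 3 or DPP4_pos replicates 2 or 3 (0.0503 to 0.132), and in males without DPP4_neg replicate 2 (0.0513). Mural cells are a known site of the type 1 receptor. The mural sums, given with Enpep, were highest in male APC and lowest in male DPP4_pos, and their part in the Agtr1a differences was not tested.

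Agtr1b, the other type 1 receptor gene (chromosome 3, 20314473 to 20367177), gave 2 reads in the whole series, 1 in female FIP replicate 1 and 1 in male DPP4_neg replicate 2. It had 0 reads in the other 22 libraries, which allows up to 3 reads in each, for counting error only. Of the 2922 stretches of 50 bases in the exons of Agtr1a, 33 (1.13%) also occur in those of Agtr1b, so reads of these receptors could be told apart over most of their length. Agtr1a gave 15103 reads.

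Agtr2, the type 2 receptor gene on the X chromosome (21484624 to 21488833), was detected almost wholly in females. DPP4_pos libraries held 349, 335 and 354 normalised counts in females and 4.52, 6.92 and 4.41 in males. FIP libraries held 86.4, 104 and 97.5 in females and 0.945, 1.78 and 0.813 in males. Each female library was far above each male one. DPP4_neg libraries held 129, 44.9 and 64.4 in females and 4.06, 2.04 and 0 in males. APC libraries held 28.7, 39.2 and 41.5 in females and 1.07, 2.32 and 1.13 in males. The sexes were again separate, and the female DPP4_neg libraries were spread more widely than those of any other female group. Female means were 24.2-fold the male ones in APC, 81.3-fold in FIP, 39.1-fold in DPP4_neg and 65.5-fold in DPP4_pos, where the male means rested on 4, 4, 6 and 14 reads over 3 libraries. The fitted male minus female log2 values were -3.92, -5.50, -4.88 and -5.81, each ± 0.41 (SE), which understate the ratios because of the added 1. Male libraries held 0 to 6.36% of the female Agtr2 mean of their subpopulation, against at most 0.0357% for Xist.

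Among females the order of Agtr2 was DPP4_pos (346 ± 9.95), FIP (96.0 ± 8.92), DPP4_neg (79.6 ± 44.3) and APC (36.5 ± 6.82), and FIP and DPP4_neg overlapped. DPP4_pos had 4.34-fold more than DPP4_neg (log2 fold change 2.24 ± 0.41, limma adjusted p = 6.17e-05) and 3.60-fold more than FIP (FIP minus DPP4_pos -1.84, adjusted p = 0.000691). FIP had 2.63-fold more than APC (1.38, adjusted p = 0.0089). With a pseudocount of 0.1 the FIP comparisons did not pass (adjusted p = 0.165 against APC and 0.0582 against DPP4_pos). The female value of APC against DPP4_neg, -0.98 (adjusted p = 0.0432), rested on DPP4_neg replicate 1. Without that library it was -0.56 (adjusted p = 0.276), and the DPP4_pos difference was 2.66. That replicate also held the most Dpp4 of its group (4213). Replicate 2, with more Dpp4 than replicate 3, held less Agtr2 (44.9 against 64.4), and the part of Dpp4-expressing cells was not tested. Dropping any of the 3 female APC libraries or DPP4_neg replicate 3 likewise ended the call (0.0547 to 0.138), as did a pseudocount of 0.1 (0.284), no filter (0.0797) and quantile normalization (0.0545).

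Male Agtr2 was close to the limit of detection. DPP4_pos males were above DPP4_neg males (5.28 ± 1.42 against 2.03 ± 2.03) by 1.31 on the log2 scale (limma adjusted p = 0.0097), but the value did not pass in edgeR (0.246) or DESeq2 (0.149) on the recovered reads, with a pseudocount of 5 (0.0595), with only these groups (0.117), or without male DPP4_neg replicate 3 (0.66, adjusted p = 0.134). FIP minus DPP4_pos was -1.53 in males (adjusted p = 0.00218; 0.0575 in edgeR). The differences of FIP from APC (-0.19) and of APC from DPP4_neg (-0.02) did not pass in males (adjusted p = 0.758 and 0.964). None of the 4 differences between the sexes in these population and depot comparisons passed for Agtr2 in limma (adjusted p of 0.0835 to 0.719). With a pseudocount of 5, which gives low counts less weight, 3 of them passed: FIP against APC (-1.37, adjusted p = 0.0122), DPP4_pos against DPP4_neg (-1.60, 0.00121) and FIP against DPP4_pos (1.07, 0.022). The first also passed with only the groups compared (0.014), the second without male DPP4_neg replicate 3 (-1.59, 0.0143), and APC against DPP4_neg passed without male DPP4_neg replicate 1 (1.47, 0.0308). Adding 5 to male values of at most 6.92 shrinks the male differences (DPP4_pos against DPP4_neg from 1.31 to 0.58). The passes at that setting therefore cannot show that the sexes differ. For FIP against DPP4_pos the value had the other sign in edgeR (-0.17) and DESeq2 (-0.32).

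**Figure D3:**
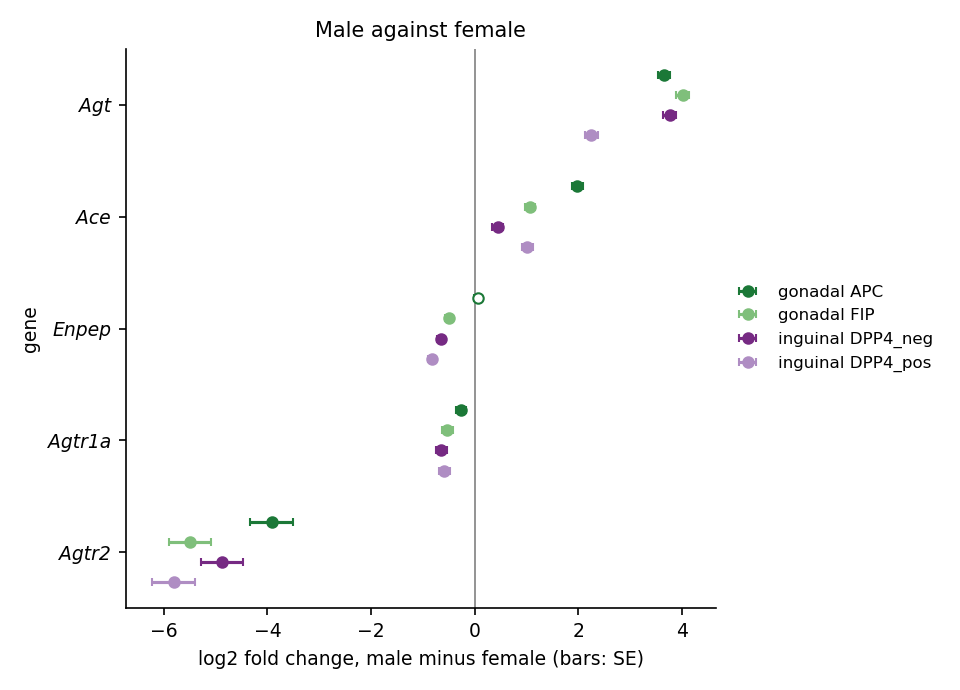
Log2 fold change of male against female for each tested member and subpopulation, with bars for the SE; filled circles passed an adjusted p of 0.05 and the open circle did not. Agt and Ace lie to the right of 0 in all 4 subpopulations, Agtr1a and Agtr2 to the left, and Enpep near 0 in APC (0.07) and to the left elsewhere. The filter made the Agtr2 calls certain, so its circles are a description and not a test.

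Across the sex comparisons, 4 of the 5 tested members passed in APC, beside 44.7% of all tested genes. All 5 passed in FIP, in DPP4_neg and in DPP4_pos, beside 37.4%, 57.6% and 52.8% of all genes. Agtr2 is among these, and its filter made that call certain. Agt and Ace passed as higher in males in each subpopulation, and Agtr1a as lower. For FIP against APC, the 5 tested members passed in females (39.6% of all genes) and 2, Agt and Enpep, in males (37.0%). For DPP4_pos against DPP4_neg all 5 passed in each sex (49.9% in females and 50.7% in males), and for FIP against DPP4_pos likewise (44.9% and 65.2%). The 5 in males include Agtr2, which entered the tests through female libraries alone and had 4 to 14 reads in these male groups. Its 2 male calls did not pass in edgeR (adjusted p = 0.246 and 0.0575). APC against DPP4_neg passed for 5 members in females (59.3%) and 4 in males (66.4%). The tested differences between the sexes passed for 2 members in FIP against APC (10.9% of all genes), 2 in DPP4_pos against DPP4_neg (29.2%), 3 in APC against DPP4_neg (43.1%) and 2 in FIP against DPP4_pos (35.1%). Each library enters several of these comparisons, so they are not independent of each other.

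**Figure D4:**
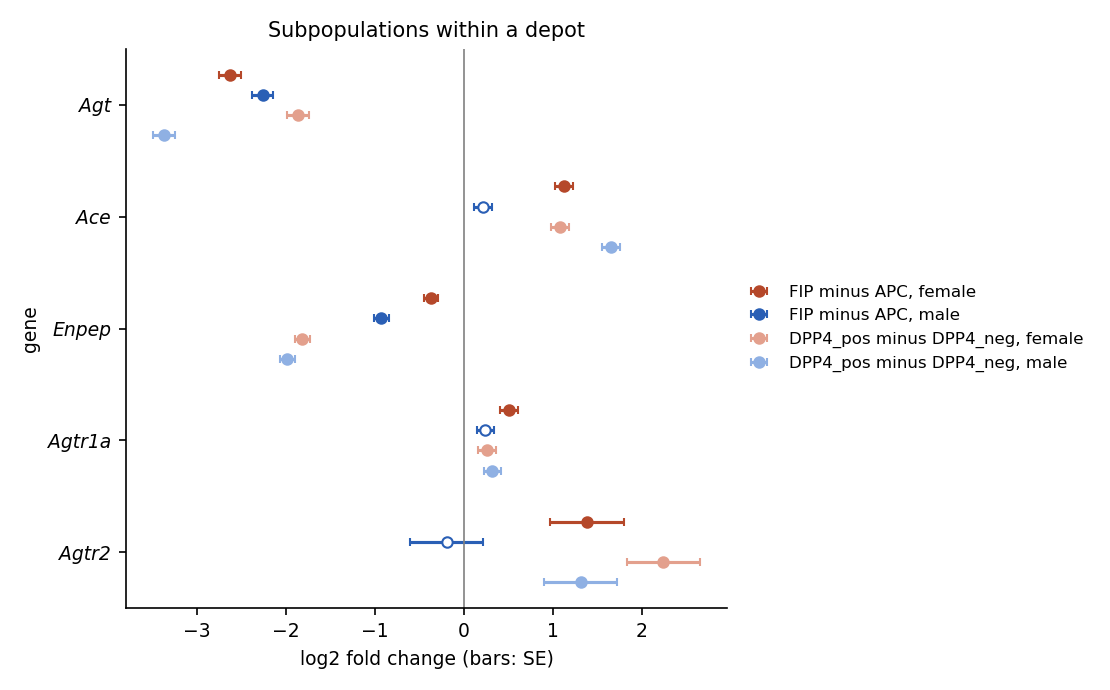
Log2 fold change of FIP against APC and of DPP4_pos against DPP4_neg for each tested member in each sex, with bars for the SE; filled circles passed an adjusted p of 0.05 and open circles did not. Agt and Enpep lie to the left of 0 in all 4 comparisons, Ace and Agtr1a to the right, and Agtr2 to the right except in male FIP against APC (-0.19).

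Levels of different genes were compared per kilobase of merged exon. On that scale Ace led the members in 7 of the 8 groups, reaching 9598 normalised counts per kilobase in male DPP4_pos. In female APC it was Enpep that led, with 1076 ± 73.3 against 964 ± 99.0 for Ace, and the libraries of these overlapped. Agt was second in male APC (2531 per kilobase) and male DPP4_neg (949), whereas in female DPP4_pos it was the fifth (18.5) and below Agtr2 (104). Agtr1a ranged from 131 per kilobase in male APC to 351 in female DPP4_pos, and it exceeded Agtr2 in all 8 groups.

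The spread of each gene over the 24 libraries was divided into parts. Sex held 85.5% of the sum of squares of Agtr2, 55.5% of Agt, 37.3% of Ace, 29.0% of Agtr1a and 8.42% of Enpep. Subpopulation within a depot held 75.7% of the sum of squares of Enpep, 33.9% of Ace and 30.4% of Agt, and depot held 50.4% of that of Agtr1a. The spread between libraries of a group took 0.333% for Agt and 5.04% for Agtr1a. These shares describe a balanced set of 24 libraries and carry no test.

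**Figure D5:**
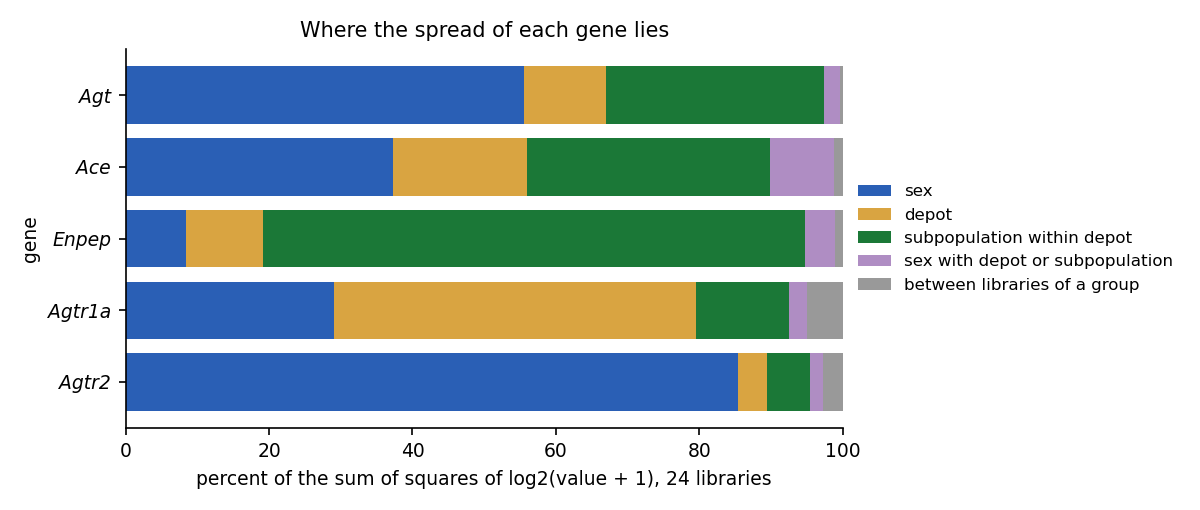
Percent of the sum of squares of log2(value + 1) over the 24 libraries that falls to sex, depot, subpopulation within depot, the combination of sex with these, and differences between libraries of a group. Sex is the main part for Agt (55.5%) and Agtr2 (85.5%), subpopulation for Enpep (75.7%) and depot for Agtr1a (50.4%).

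Pearson correlations over the 24 libraries, on the log2(value + 1) scale, describe which members followed each other; the libraries share groups, so r mainly reflects the 8 group means. Agt ran opposite to Agtr2 (r = -0.869) and Agtr1a (-0.835), and Ace opposite to Enpep (-0.775). The receptor genes Agtr1a and Agtr2 followed each other (0.722), and Agt and Ace had an r of 0.0003 over all libraries. Both were higher in males, but within a depot Agt was lower in FIP and DPP4_pos and Ace higher, though Ace did not pass in male FIP. The genes nearest to Agt in pattern were Rasl12 (r = 0.973), Cp (0.972), Tssc4 (0.967), Enpp5 (0.961) and Cyp2j9 (0.959). Cp encodes the copper carrier ceruloplasmin, and its group means ran from 731 to 20401 normalised counts. Nearest to Agtr2 were Ptpn5 (0.959), Akr1c14 (0.958), Tmem229a (0.948), Mttp (0.936) and Pgr (0.928), the last of which encodes the progesterone receptor. Ace was followed most closely by Ntn1 (0.972), which encodes the guidance factor netrin-1, and by Bcor (0.956), Arhgap23 (0.954), Arhgap22 (0.949) and Arvcf (0.944). For Enpep the nearest were Adam12 (0.952), a metalloprotease gene, Prtg (0.949), Mapk13 (0.948) and Mdfi (0.947). Agtr1a was nearest to Rest (0.943), Cd164 (0.938), Gmfb (0.936), Crispld1 (0.925) and Cgnl1 (0.923).

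Other genes that make, cut or bind angiotensins were read from a list of 20, of which 16 were tested. Ren1, which encodes renin and was named after its values were seen, was scarce. Its highest group mean was 29.8 ± 12.6 normalised counts in female FIP, followed by 24.1 ± 8.10 in female DPP4_neg, and it was at 0 in all male DPP4_pos libraries. Mas1, the gene for a receptor of angiotensin 1-7, was near 0 as well (group means of 0.761 to 6.80). In males against females, 4 of the 16 were higher and 5 lower in APC (22.4% and 22.2% of all genes), 3 and 5 in FIP (18.3% and 19.1%), 3 and 7 in DPP4_neg (27.1% and 30.5%), and 2 and 6 in DPP4_pos (27.1% and 25.7%). The median log2 differences were -0.15, -0.13, -0.15 and -0.13, against medians between -0.03 and 0.00 over all genes. Genes of the lists given with a value below passed with a limma adjusted p of at most 0.000281. Anpep, the aminopeptidase that acts on angiotensin III, was lower in male APC (-2.39, means of 662 against 3480) and FIP (-1.03), and Mme, which encodes neprilysin, was lower as well (-2.03 and -1.24). Rnpep, another aminopeptidase gene, was higher in male APC by 1.71, and Atp6ap2, the prorenin receptor gene, was higher in male DPP4_neg by 1.02. The mast cell chymase genes Cma1 and Mcpt4 were lower in male than in female DPP4_neg (-3.08 and -2.90, with means of 51.6 against 389.7 and 83.7 against 565).

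Within the inguinal depot, Anpep and Prcp, a carboxypeptidase gene, were higher in DPP4_pos cells, by 1.56 and 1.19 in females and 1.25 and 1.34 in males. Mme was lower there (-1.84 and -2.42), so the genes for peptidases that act on angiotensins did not move as one: Ace and Anpep were higher and Enpep and Mme lower in DPP4_pos. In DPP4_pos females 6 of the 16 genes were higher and 6 lower (22.7% and 27.2% of all genes), and in males 7 and 5 (25.3% and 25.4%), with medians of 0.04 and 0.17. FIP against APC gave 3 higher and 3 lower genes in females (21.4% and 18.2%), with 4 and 4 in males (18.9% and 18.1%). In the depot comparisons, 4 were higher and 5 lower in female APC than in DPP4_neg (27.0% and 32.4%), 4 and 6 in male APC (33.3% and 33.1%), 2 and 7 in female FIP against DPP4_pos (22.2% and 22.7%), and 5 and 7 in male FIP (32.8% and 32.4%). Mme was lower in APC than in DPP4_neg (-1.07 in females and -3.27 in males). Mtus1, whose product interacts with the type 2 receptor, was higher in FIP than in DPP4_pos (1.09 and 1.78).

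Genes of the signalling around these peptides moved in both directions. Of 15 tested kinin and other vasoactive peptide genes, 6 were higher and 6 lower in male than in female APC (22.4% and 22.2% of all genes), 6 and 4 in FIP (18.3% and 19.1%), 7 and 6 in DPP4_neg (27.1% and 30.5%), and 4 and 5 in DPP4_pos (27.1% and 25.7%). Ramp1, a receptor partner for calcitonin-family peptides, was higher in male APC, FIP and DPP4_pos by 3.30, 3.95 and 4.20, and Avpr1a, the vasopressin receptor gene, in male APC, FIP and DPP4_neg by 3.79, 3.78 and 2.36. Edn1, the endothelin-1 gene, was higher in FIP than in APC (means of 665 against 86.4 in females and 851 against 24.1 in males) and in DPP4_pos than in DPP4_neg (461 against 94.2 and 733 against 20.1). Edn1 is also an endothelial gene. As given with Ace, most endothelial markers were lower in these comparisons in females, while Tek was higher. In males Tek and Kdr were higher and Emcn lower in DPP4_pos, and Tek alone passed in FIP. The summed endothelial level was higher in FIP and in DPP4_pos in each sex. The part of endothelial markers in the Edn1 differences was not tested. Calcrl, the partner receptor of Ramp1, and Adm, the gene for adrenomedullin, were higher in DPP4_pos than in DPP4_neg by 1.59 and 1.10 in females and 2.87 and 1.15 in males. Of 16 genes for coupling and desensitisation of the type 1 receptor, 6 were higher and 2 lower in male APC (22.4% and 22.2% of all genes) and in male FIP (18.3% and 19.1%), 6 and 6 in DPP4_neg (27.1% and 30.5%), and 5 and 8 in DPP4_pos (27.1% and 25.7%). Among them Rgs4, a regulator of G-protein signalling, was higher in male APC (2.44) and male DPP4_neg (2.81), and Rgs2, another, was lower in male DPP4_neg (-3.77). Itpr1, the calcium release channel gene, was lower in DPP4_pos than in DPP4_neg (-1.91 in females and -1.43 in males).

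Of 10 genes of mineralocorticoid and glucocorticoid receptor action, 1 was higher and 3 were lower in male APC (22.4% and 22.2% of all genes), 2 and 4 in FIP (18.3% and 19.1%), 4 and 1 in DPP4_neg (27.1% and 30.5%), and 3 and 5 in DPP4_pos (27.1% and 25.7%). Hsd11b1, which encodes the enzyme that regenerates active glucocorticoid, was higher in males by 3.01 in APC (8092 against 1004) and 2.05 in FIP, and it was lower in FIP than in APC (means of 398 against 1004 in females and 1634 against 8092 in males). Hsd11b2, the inactivating enzyme gene, was lower in males in APC (-2.23) and FIP (-2.91). The mineralocorticoid receptor gene Nr3c2 had group means of 44.9 to 95.7, and the glucocorticoid receptor gene Nr3c1 of 1239 to 2396. Macrophage markers, 13 in all, summed to 179 to 903 in 7 of the groups and 743 to 1572 in female DPP4_neg.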

How the data were processed

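Gene expression was measured by bulk RNA sequencing in 24 libraries, 8 groups of 3. Per the labels' protocols, each library was made with NEBNext Ultra II from 0.5 ug of Trizol-extracted total RNA. The submitters' processing notes list DESeq2 1.6.3, featureCounts 1.4.6, HISAT2 2.0.1 and Trim Galore 0.4.1, and the builds mm10 and GRCm38. The sources used here do not give the annotation or the strand setting. Deposited values are a normalised signal per gene, made by the authors as reads divided by 1 size factor per library. That was checked: 100% of values in each library were whole multiples of 1 step within 0.01 read, and the steps gave back the reads, of which at most 0.0765% lay on rows without a symbol. Those rows were left out. The 10 most abundant genes took 11.1 to 19.5% of a library's reads.

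A pseudocount of 1 was added before taking log2, and all 24 libraries entered 1 fit in limma 3.58.1 under R 4.3.3, which had a mean for each group and a mean-variance trend. A gene was tested when 3 or more libraries had a value of 10 or more, with Benjamini-Hochberg adjustment over the 14387 genes of a comparison and a threshold of 0.05. The fit was tested on simulated data. Libraries of a group correlated with r of 0.982 to 0.992, and chi-square per degree of freedom was at least 1.65 in the 24 pairs, so none agreed within sampling noise. Replicate numbers in the labels were checked as pairs. Over 36 same-numbered pairs the deviations from group means correlated with r of -0.177 to 0.202, and in DPP4_pos against DPP4_neg of females every pair exceeded 0.1 (0.129, 0.202 and 0.104).

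Alternatives were pseudocounts of 0.1 and 5, no filter, quantile normalization, edgeR 4.0.16 with TMM and DESeq2 1.42.0 on the recovered reads, only the groups compared, a replicate block, and leaving out each library in turn. From the lists of pathway and hormone genes, some were eligible to be named. They had to pass in the same direction in both sexes of a population or depot comparison, or in a sex comparison. A log2 fold change of 1 or more either way and a higher group mean of 100 or more were also required, up to 5 genes per list and comparison. Ren1, Mas1, Nr3c1 and Nr3c2 fall outside this rule and were named after their values were seen. For each tested member the 5 genes with the highest r were named, leaving out predicted and clone-named genes; some genes that the naming rules allow are not reported here. Members and lists were chosen with earlier results of these data known. RefSeq supplied gene positions for 6 of 6 members and a promoter entry for 5; Agtr1a is named only.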

Additional observations from a re-analysis of the deposited data

Results flagged for a closer look

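For 4 of the members the difference between groups itself differed between the sexes by a test of the interaction in limma, with values on the log2 scale as males minus females. Agt fell more from DPP4_neg to DPP4_pos in males (-1.51, Benjamini-Hochberg adjusted p = 3.07e-07), and its excess in FIP over DPP4_pos was larger in males (1.76, adjusted p = 2.41e-08). Ace had 3 such differences: -0.92 for FIP against APC (adjusted p = 0.000109), 0.57 for DPP4_pos against DPP4_neg (0.0036) and 1.54 for APC against DPP4_neg (4.84e-09). Enpep had 3 as well, -0.56 for FIP against APC (0.00189), 0.72 for APC against DPP4_neg (1.66e-05) and 0.33 for FIP against DPP4_pos (0.0272). The last was lost on leaving out any 1 of several libraries (adjusted p of up to 0.0718). Agtr1a differed for APC against DPP4_neg (0.38, adjusted p = 0.03). That call was lost with only the groups compared (0.073) and on leaving out any 1 of several libraries (up to 0.0935). Of the 5 tested members, 2 passed in FIP against APC (10.9% of all genes) and 2 in DPP4_pos against DPP4_neg (29.2%). In APC against DPP4_neg 3 passed (43.1%), and in FIP against DPP4_pos 2 (35.1%). Every group enters 2 of the 4 interaction tests of a gene, so the 9 differences are not independent. Those with DPP4_neg take in the female DPP4_neg libraries, which held more Dpp4 than male DPP4_neg. The epithelial markers summed to 4192 to 10141 in female and 11.1 to 30.6 in male DPP4_neg. The part of these unlike libraries in the differences between the sexes was not tested.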

How the results depend on the processing

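Of 640 member values under the 8 settings other than leaving out a library, 605 kept their direction and their side of the threshold, 17 lost and 10 gained a call, and 8 changed sign without being called in the original fit. Leaving out 1 library gave 600 values, of which 563 were unchanged in this sense, 25 lost and 3 gained a call, and 9 changed sign. The number of members called moved by over 1.5 times for FIP against APC in males, from 2 to 4 with only the groups compared, and for the sex difference of FIP against DPP4_pos, from 2 to a range of 1 to 2 on leaving out a library. The cause was not tested. Every change of sign was in a value that did not pass in the original fit, of which the Agtr2 sex difference of DPP4_pos against DPP4_neg (-0.93) was the largest. For Agtr2 in APC against DPP4_neg of males (originally -0.02) the values were 0.66 with a pseudocount of 0.1, 0.27 with quantile normalization and -0.68 to 0.49 without 1 library; in FIP against APC of males they were -0.38 to 0.026 without 1 library. Its sex difference of DPP4_pos against DPP4_neg was 0.19 with a pseudocount of 0.1, and that of FIP against DPP4_pos was -0.26 with a pseudocount of 0.1, -0.17 in edgeR and -0.32 in DESeq2. With quantile normalization the sex difference was 0.041 for Enpep in DPP4_pos against DPP4_neg and 0.10 for Agt in APC against DPP4_neg. Without 1 library, the sex difference of FIP against DPP4_pos was -0.056 to 0.16 for Ace and -0.032 to 0.11 for Agtr1a, and that of DPP4_pos against DPP4_neg was -0.016 to 0.15 for Agtr1a.

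With the replicate block the number of members called in FIP against APC of males was 3, since Agtr1a (0.24) reached an adjusted p of 0.0428; the block changed no other call of a member, also not in the pairing of female DPP4_pos and DPP4_neg. Over all genes it lowered the count of calls slightly in each of the 16 comparisons, for example from 5696 to 5620 in FIP against APC of females. In 3 of the 12 pairs of groups (female DPP4_pos with DPP4_neg, and the sexes in APC and in DPP4_neg) all 6 libraries correlated best with their own number. Quantile normalization moved the median of all genes in female APC against DPP4_neg from -0.02 to 0.11 and the share of higher genes among the calls from 45.4% to 56.6%; Agt and the other members kept their direction there. Depth limits Agtr1b, with 2 reads, and male Agtr2, with 4 to 14 reads a group.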
